A study of Lolium multiflorum with 4 samples.

Results

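Transcript levels of LmHC and LmLC seedlings before cadmium were compared in Lolium multiflorum (Italian ryegrass), a forage grass. The comparison uses 2 of the 4 libraries of the series, LmHC at 0 h and LmLC at 0 h, with 1 library each, so there is no replicate spread and no test. LmHC is labelled high cadmium and LmLC low cadmium. They were read as 2 lines because the growth notes name them as separate seed, although the treatment tag of the labels holds high and low cadmium, and the descriptions give Dg and Vm as earlier names without explanation. In all groups the seedlings had started on agar, were moved to nutrient solution at 7 days and were 2 weeks old when treatment began. The LmHC and LmLC libraries at 24 h came from seedlings given 300 µM cadmium chloride and serve here to ask whether a difference of 0 h was seen again. The labels do not give the tissue, the number of seedlings per library or any genotype, and contigs carry no gene names, so neither tissue markers nor the targets of a pathway could be looked up.

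Italian ryegrass is an outcrossing, self-incompatible species, so plants are highly heterozygous and seed lots are populations that carry many alleles of a gene. When a transcriptome is assembled without a genome, alleles, splice forms and close gene copies often become separate contigs that are grouped in a cluster by sequence similarity. A line can therefore differ from another in the amount of all transcripts of a cluster, or in which contigs of the cluster the transcripts fit. Cadmium enters plants largely through carriers of nutrient metals and is bound and stored by thiol compounds, and levels before exposure show the state from which each line met the metal.

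Levels were deposited as FPKM, fragments counted per kilobase of a contig and normalised to how many fragments of that library were mapped, for 111761 contigs. Of these, 61184 belong to 15237 clusters named CL and 50577 stand alone, named Unigene. Contigs with a mean of at least 1 FPKM over the 4 libraries were kept, which gave 70886 contigs, 43000 of them in clusters and 27886 stand-alone. Summing FPKM over the contigs of a cluster gave 14193 clusters with a mean sum of at least 1 FPKM. A cluster held a median of 3 contigs and at most 57. Column totals were 783112 FPKM in LmHC and 793906 FPKM in LmLC at 0 h, with 68.7% and 68.5% of it in clusters. The depth of each library is unknown. Low values of stand-alone contigs, where few fragments give a contig its value, put the depth of LmHC at 0.986 of that of LmLC at 0 h. This value is rough. Of 4742 such contigs, 636 lay within 0.02 of the most frequent log2 ratio. Contigs with several fragments can have a ratio near 0 at any depth, and no fragment counts were given to check it.

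The libraries at 0 h were close for most contigs, and the larger differences were more often toward LmLC. Ratios are log2 of (FPKM + 1) in LmHC over (FPKM + 1) in LmLC, a scale that understates differences at low levels, and contigs at least 2-fold different are called apart. Higher in LmHC were 1761 of 70886 contigs (2.48%) and higher in LmLC 3139 (4.43%), together 6.91%, while 59.3% had a log2 ratio within 0.32 of 0. Of the stand-alone contigs, 910 (3.26%) passed toward LmHC and 1431 (5.13%) toward LmLC. In clusters, 851 contigs (1.98%) passed 2-fold toward LmHC and 1708 (3.97%) toward LmLC. The median log2 ratio of all contigs was 0.0. No count here has a replicate check, line and library cannot be told apart with 1 library per line, and differences between shares could not be tested because contigs are not replicates.

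The contigs at the ends of the distribution behaved unlike each other at 24 h. Unigene5633_All had 20.04 FPKM in LmHC and 0.17 FPKM in LmLC at 0 h, a log2 ratio of 4.17, and 2.03 FPKM in LmHC against 1.71 FPKM in LmLC at 24 h. CL7050.Contig1_All had 10.25 FPKM in LmHC and 0.01 FPKM in LmLC at 0 h, and 5.31 FPKM in LmHC against 1.10 FPKM in LmLC at 24 h. The first lost its difference at 24 h and the second kept its direction. CL7050.Contig1_All made up 47.5% of the FPKM of its cluster of 6 contigs in LmHC at 0 h and 0.097% in LmLC. Toward LmLC, Unigene36241_All was listed at 0 in LmHC and had 173.03 FPKM in LmLC at 0 h, and its levels at 24 h were 0.12 FPKM in LmHC and 124.29 FPKM in LmLC. CL12486.Contig2_All was listed at 0 in LmHC against 82.08 FPKM in LmLC at 0 h, and in both lines at 24 h it was listed at 0. Unigene36241_All was thus high in LmLC at both times, and CL12486.Contig2_All in the LmLC library of 0 h alone.

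Few abundant contigs differed. Of 1044 contigs with a mean of at least 100 FPKM over the 4 libraries, 5 passed 2-fold toward LmHC and 2 toward LmLC at 0 h. Of these 7 contigs, 4 were under 50 FPKM in both 0 h libraries and owed their high mean to the 24 h libraries. Unigene4886_All had 33.55 FPKM in LmHC and 11.07 FPKM in LmLC at 0 h, and 266.34 FPKM in LmHC and 235.98 FPKM in LmLC at 24 h. CL7932.Contig2_All had 7.62 FPKM in LmHC and 2.36 FPKM in LmLC at 0 h, and 393.11 FPKM in LmHC and 314.72 FPKM in LmLC at 24 h. Unigene36441_All went the other way, with 1.04 FPKM in LmHC and 5.15 FPKM in LmLC at 0 h, and 967.65 FPKM in LmHC and 900.93 FPKM in LmLC at 24 h. These 3 contigs were far lower in both lines before cadmium than at 24 h, when the lines lay within 2-fold. CL5374.Contig1_All was the exception among the 4 named: it had 144.32 FPKM in LmHC and 345.13 FPKM in LmLC at 0 h (log2 ratio -1.252), and 24.54 FPKM in LmHC and 57.98 FPKM in LmLC at 24 h (log2 ratio -1.207). Its share of its 3-contig cluster was 74.3% in LmHC and 78.5% in LmLC at 0 h, so the gap lay in its level and not in its share.

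Over all levels, a smaller share of summed clusters than of contigs was apart. At 0 h, 195 of 14193 cluster sums (1.37%) passed 2-fold toward LmHC and 301 (2.12%) toward LmLC, together 3.49%, against 5.95% of clustered contigs and 8.39% of stand-alone contigs. The standard deviation of the log2 ratio was 0.46 over cluster sums, 0.57 over clustered contigs and 0.63 over stand-alone contigs. At least 8-fold, 1 cluster sum was higher in LmHC and 35 in LmLC, and among all contigs the numbers were 8 and 249. Sums are higher than their contigs, and counting noise is larger at low levels, so the shares were also set out by level. At a mean of 5 to 20 FPKM, 5.17% of stand-alone contigs, 4.29% of clustered contigs and 2.34% of cluster sums were apart. At 20 to 100 FPKM the shares were 2.57%, 2.29% and 1.02%. At 100 FPKM or more they were 0.935% of stand-alone contigs, 0.553% of clustered contigs and 0.819% of cluster sums, so there the share of sums was not below that of clustered contigs. At 1 to 5 FPKM they were 9.91%, 7.82% and 9.51%, so among the lowest cluster sums the share was close to those of single contigs.

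**Figure D1:**
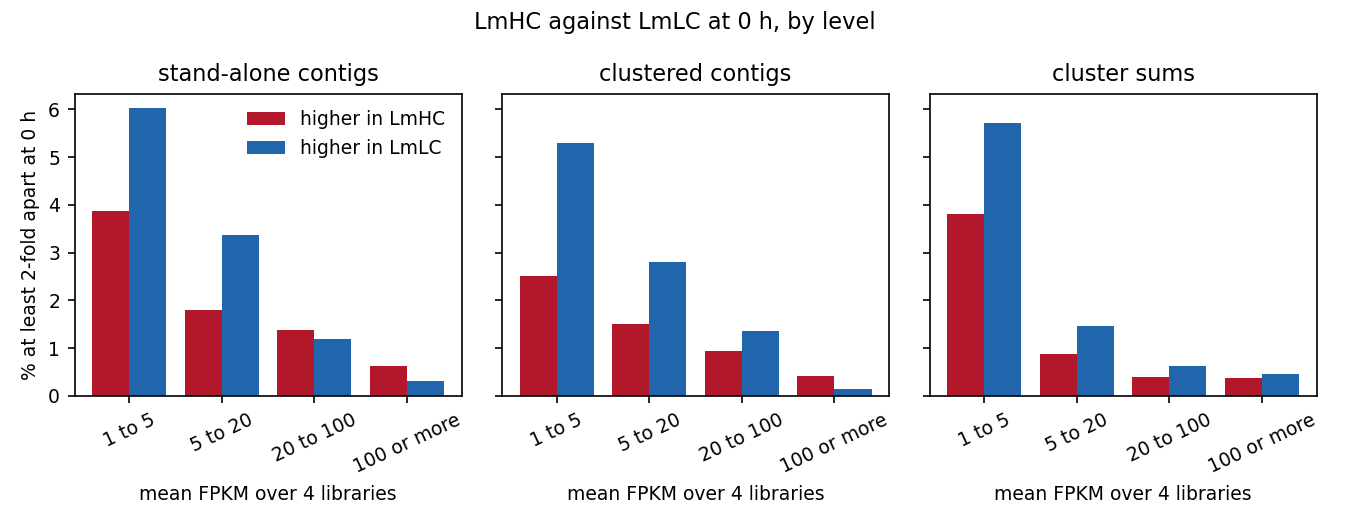
Bars give the percentage of stand-alone contigs, clustered contigs and cluster sums at least 2-fold higher in LmHC (red) or LmLC (blue) at 0 h, by mean FPKM over the 4 libraries, with 1 library per line. Shares fall with the level in each panel, and from 5 to 100 FPKM cluster sums lie below both kinds of contig.

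The gap between contigs and sums was small in clusters of 2 contigs and larger above that. In clusters of 2 contigs, 6.06% of contigs and 5.44% of sums were apart. In clusters of 3 to 5 contigs the shares were 5.39% and 2.60%, and in clusters of 6 to 10 contigs they were 6.28% and 1.17%. Above 10 contigs, 6.48% of contigs and 1.41% of the 782 sums were apart. The share of contigs apart thus stayed between 5.39% and 6.48%, while that of sums was lower in clusters of more than 5 contigs than in smaller ones. Sums also rise with the number of contigs, so level and cluster size cannot be told apart here.

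Each of the 2559 clustered contigs apart at 0 h was then placed by what its cluster did. In 517 (20.2%) the cluster sum was at least 2-fold apart the same way. Another contig of the cluster was apart the same way for 60 of the 161 such contigs toward LmHC and 187 of the 356 toward LmLC, and for the others the sum passed 2-fold with no other contig apart the same way. In 381 (14.9%) the sum stayed within 2-fold and another contig of the cluster was at least 2-fold apart the other way. The remaining 1661 (64.9%) had neither: the contig differed, the sum stayed within 2-fold and no contig passed 2-fold in the opposite direction. Toward LmHC these classes held 161, 175 and 515 contigs, and toward LmLC 356, 206 and 1146. The third class was the largest in both directions. Contigs with an opposite partner were fewer than those whose cluster sum differed toward LmLC, and about as many toward LmHC. Over both directions this order turned with a pseudocount of 0.1, which gave 1672 contigs with an opposite partner and 1232 whose cluster sum differed.

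The classes differed in how much of the cluster the contig made up, in part by construction. A cluster sum passes 2-fold more easily with a contig that makes up much of it. Larger clusters also hold more contigs that could be an opposite partner. In the library where it was higher, a contig of the first class held a median of 64.4% of its cluster's FPKM toward LmHC and 59.0% toward LmLC, in clusters with a median of 2 contigs. A contig with an opposite partner held 8.0% toward LmHC and 5.71% toward LmLC, in clusters with a median of 10 and 11 contigs. A contig of the third class held 16.8% toward LmHC and 8.16% toward LmLC, in clusters with a median of 5 contigs. In that class, 69 of the 515 LmHC contigs and 65 of the 1146 LmLC contigs made up 50% or more of their cluster. Over all classes, 479 of the 2559 contigs made up 50% or more. The same share over all clustered contigs was not counted. In a cluster of several contigs most hold under 50% whether apart or not, so this is not a trait of the contigs apart. Among the 1146 toward LmLC, the other contigs of the cluster summed to more in LmHC in 499, and in 341 this offset at least 50% of the contig's own difference. Among the 515 toward LmHC the numbers were 184 and 93.

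**Figure D2:**
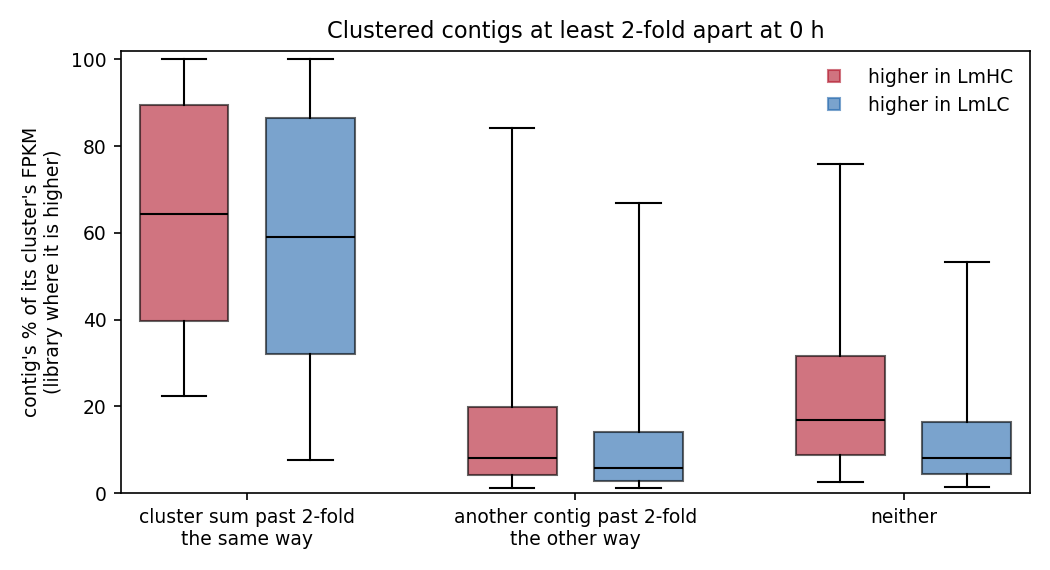
Boxes give each contig's percentage of the FPKM of its cluster, in the library where it is higher, for clustered contigs at least 2-fold higher in LmHC (red) or LmLC (blue) at 0 h (line: median; box: quartiles; whiskers: 5th and 95th percentiles over contigs). Contigs whose cluster sum moved with them have medians of 64.4% and 59.0%, and the medians of the other classes lie at 16.8% or below. The classes are defined by the cluster sum, so part of this gap is by construction.

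Counted by cluster, 1753 of the 10812 clusters with at least 2 expressed contigs had a contig apart. In 1329 of these (75.8%) a single contig was apart. In 277 several contigs were apart in 1 direction, 62 toward LmHC and 215 toward LmLC, and in 147 (8.39%) contigs were apart in both directions. All expressed contigs were apart the same way in 64 clusters, 14 toward LmHC and 50 toward LmLC. Pairs of contigs apart within a cluster went the same way 618 times and the opposite way 274 times. No expected number was worked out for these pairs. More contigs were apart toward LmLC than toward LmHC, which by itself favours pairs that go the same way, and large clusters give more pairs. A fragment that fits more than 1 contig is shared out by RSEM, so contigs of a cluster are not independent of each other.

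Part of the difference in FPKM cancelled when clusters were summed. Absolute differences between LmHC and LmLC at 0 h added up to 112784 FPKM over clustered contigs, 10.4% of their FPKM in the 2 libraries, and to 77060 FPKM over cluster sums. The sum over clusters was thus 31.7% smaller. Between the lines at 24 h, in libraries of their own, 30.5% cancelled. Between 24 h and 0 h, comparisons that share the 0 h libraries with this one, 6.59% cancelled in LmHC and 5.97% in LmLC. A larger part of the difference thus cancelled between lines than between times. The differences between times were also larger, at 45.4% of the clustered FPKM of the 2 libraries in LmHC and 44.9% in LmLC. Counting noise that is independent between contigs cancels in sums as well. Its part was not tested, so these values do not settle where the line differences lay.

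The log2 ratios showed a similar contrast between lines and times. The intraclass correlation, the part of the variance of contigs' log2 ratios that lies between clusters, was 0.129 for LmHC over LmLC at 0 h across 40063 contigs of 10812 clusters. For 24 h over 0 h it was 0.667 in LmHC and 0.718 in LmLC, and for LmHC over LmLC at 24 h it was 0.116. Restricted to a mean of 5 FPKM or more, it was 0.142 for the lines at 0 h across 15075 contigs, and 0.822 and 0.844 for the times in LmHC and LmLC. Within a cluster, log2 ratios of LmHC over LmLC at 0 h had a standard deviation of 0.53, against 0.20 between clusters. For 24 h over 0 h in LmHC these were 0.90 within and 1.27 between clusters. Contigs of a cluster thus shared their change over time but little of the difference between lines. These values describe contigs that share a library, its depth and fragments. The line differences were smaller than the time differences, and the part of counting noise in them was not tested.

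Composition was measured apart from level in the 9913 clusters of at least 2 contigs with a sum of at least 5 FPKM in both 0 h libraries. The composition distance adds up the differences of the contigs' shares of the cluster sum and divides them by 2, so that 0 means equal shares and 1 no contig in common. The median distance between LmHC and LmLC was 0.0658, and 95% of clusters lay under 0.203. A distance of at least 0.3 with sums within 2-fold was found in 121 clusters (1.22%). In 79 clusters (0.797%) the sum alone was at least 2-fold apart, 37 toward LmHC and 42 toward LmLC. In 16 clusters (0.161%) both differed, and in 9697 neither did. The contig with the highest level differed between the lines in 85 of the 121 clusters and in 865 of the 9697. Among clusters at these levels, differences of composition alone were found in more clusters than differences of level alone, and both were rare. The limit of 5 FPKM in both libraries leaves out clusters that were low in 1 line, so it works against differences of level. Without it, 496 of 14193 cluster sums were at least 2-fold apart, so the 2 counts do not rank composition against level over all clusters. At a distance of 0.5 the order turned, with 10 clusters apart in composition alone and 92 in level alone.

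**Figure D3:**
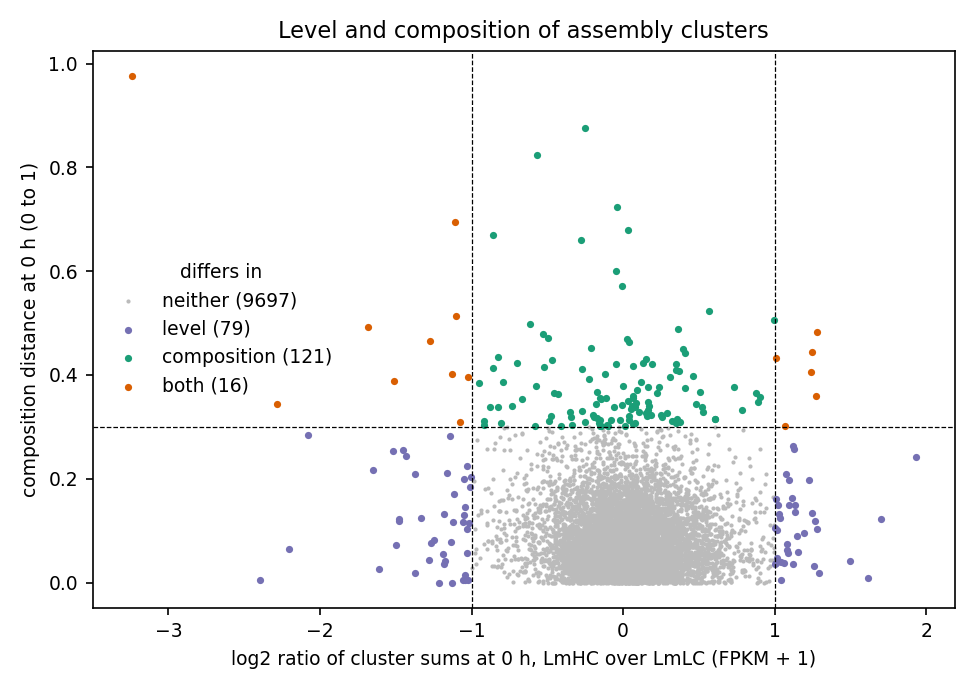
Each point is an assembly cluster with at least 5 FPKM in both 0 h libraries, by the log2 ratio of its sum in LmHC over LmLC and by its composition distance. Dashed lines mark 2-fold and a distance of 0.3, and 9697 of 9913 points lie in the lower middle field.

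Composition at 24 h leaned the same way in most clusters, including most of those with a large distance at 0 h. Of the 121 clusters, 67 also had sums of at least 5 FPKM in both 24 h libraries. In 58 of them (86.6%) the vector of share differences between LmHC and LmLC at 24 h pointed the same way as at 0 h, with a cosine above 0, against 5473 of 7765 (70.5%) among clusters that differed in neither. The share with a cosine above 0 was 67.6% at distances under 0.1 and 77.7% from 0.1 to 0.2. It was 82.0% from 0.2 to 0.3 and 86.3% from 0.3 to 0.5. The 4 clusters above 0.5 that could be followed all had a cosine above 0. A cosine of at least 0.5 was reached by 37 of the 67 clusters (55.2%) and by 51.8% of the clusters that differed in neither. In the distance bands up to 0.5 it was reached by 50.4% to 58.6% of clusters. By this measure the clusters with a large distance lay near the background. In a cluster of 2 contigs the cosine can only be 1 or -1, so the limit of 0.5 is no stricter there than a cosine above 0. It is stricter in larger clusters, and the groups were not matched for the number of contigs. The sizes shrank: in the 67 clusters the median distance was 0.344 at 0 h and 0.198 at 24 h, and 19 were still at 0.3 or more. In the clusters that differed in neither, the median was 0.065 at 0 h and 0.0828 at 24 h. Clusters were chosen for a large distance at 0 h, and that choice by itself favours a smaller one at 24 h.

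The clusters with the largest exchange show its forms. Cluster CL635 had the largest distance, 0.66, among clusters with at least 20 FPKM in both libraries and sums within a log2 ratio of 0.32. Its 3 contigs summed to 28.35 FPKM in LmHC and 34.53 FPKM in LmLC at 0 h. CL635.Contig1_All had 24.15 FPKM in LmHC and 7.60 FPKM in LmLC, whereas CL635.Contig2_All had 0.60 FPKM in LmHC and 23.53 FPKM in LmLC. CL635.Contig1_All thus made up 85.2% of the cluster in LmHC and 22.0% in LmLC. At 24 h CL635.Contig1_All had 43.51 FPKM in LmHC and 9.03 FPKM in LmLC, and CL635.Contig2_All had 3.54 FPKM in LmHC and 3.87 FPKM in LmLC. The first contig was again higher in LmHC, the second was no longer apart, and the sum was then 48.96 FPKM in LmHC and 17.80 FPKM in LmLC.

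Cluster CL3949, of 9 contigs, did not keep its exchange. Its sums at 0 h were 85.04 FPKM in LmHC and 79.66 FPKM in LmLC, with a distance of 0.37. CL3949.Contig5_All had 20.86 FPKM in LmHC and 3.4 FPKM in LmLC, and CL3949.Contig8_All had 5.29 FPKM in LmHC and 29.38 FPKM in LmLC. At 24 h CL3949.Contig5_All had 1.50 FPKM in LmHC and 2.12 FPKM in LmLC, and CL3949.Contig8_All had 23.39 FPKM in LmHC and 21.89 FPKM in LmLC. The distance at 24 h was 0.13 and the cosine -0.72. It was the LmHC library of 0 h that stood apart in CL3949.Contig8_All, with the other 3 libraries between 21.89 and 29.38 FPKM.

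Cluster CL4623, of 14 contigs, was the most abundant with a distance of at least 0.3 and sums within a log2 ratio of 0.32. It summed to 121.29 FPKM in LmHC and 112.83 FPKM in LmLC. CL4623.Contig13_All had 16.81 FPKM in LmHC and 3.98 FPKM in LmLC, and CL4623.Contig5_All had 26.87 FPKM in LmHC and 13.16 FPKM in LmLC. Contigs on the other side were spread: CL4623.Contig1_All had 1.56 FPKM in LmHC and 8.67 FPKM in LmLC, and 2 others were also at least 2-fold higher in LmLC. At 24 h the distance was 0.25 and the cosine 0.84. Its exchange was thus shared among many contigs and seen in both pairs of libraries.

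**Figure D4:**
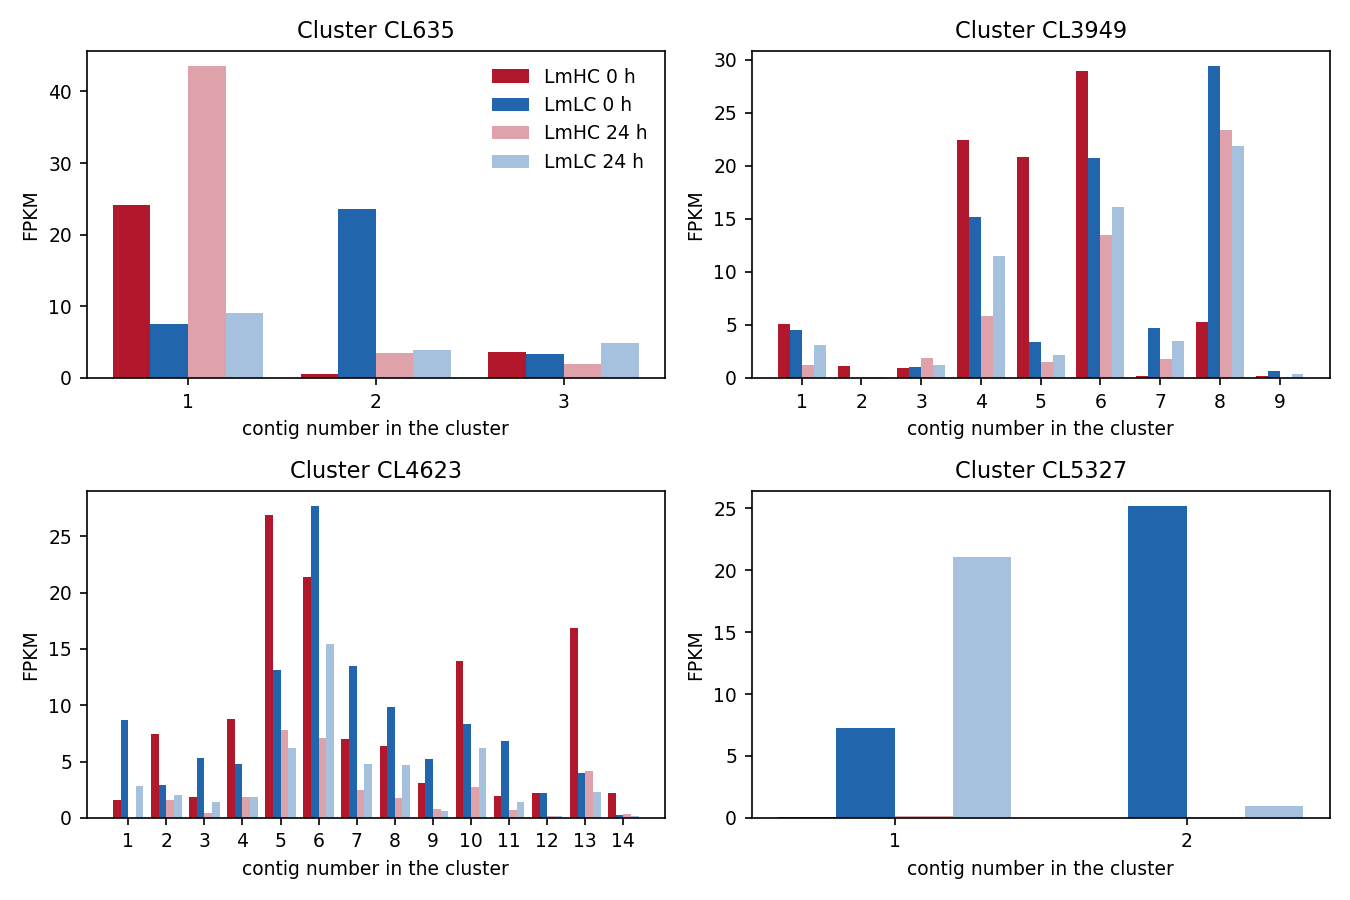
Bars give FPKM of each contig of 4 clusters in LmHC (red) and LmLC (blue) at 0 h (dark) and 24 h (pale), 1 library each. CL635 exchanges its leading contig at 0 h, CL3949 differs most in contigs 5 and 8, CL4623 spreads the exchange over many contigs, and CL5327 is near 0 in both LmHC libraries.

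Among whole clusters, the largest ratios were toward LmLC. Of the 10812 clusters with at least 2 expressed contigs, CL12486 was listed at 0 in LmHC and summed to 118.43 FPKM in LmLC at 0 h. At 24 h it had 0.10 FPKM in LmHC and was listed at 0 in LmLC, so that all 3 of its contigs were high in a single library. CL5327 summed to 0.05 FPKM in LmHC and 32.44 FPKM in LmLC at 0 h, and to 0.26 FPKM in LmHC and 22.01 FPKM in LmLC at 24 h. Within LmLC its contigs traded places, with CL5327.Contig2_All at 25.18 FPKM at 0 h and 0.92 FPKM at 24 h, and CL5327.Contig1_All at 7.26 FPKM at 0 h and 21.09 FPKM at 24 h. Toward LmHC the ratios were smaller. CL13810 summed to 23.94 FPKM in LmHC and 3.27 FPKM in LmLC at 0 h (log2 ratio 2.55), and to 0.22 FPKM in LmHC and 0 in LmLC at 24 h. CL4190 summed to 11.61 FPKM in LmHC and 1.34 FPKM in LmLC at 0 h (log2 ratio 2.43), and to 0.23 FPKM in LmHC and 0.18 FPKM in LmLC at 24 h. Both were close to 0 in both lines at 24 h, so the later libraries could not show whether the difference lasted.

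A larger share of the clusters that differed at 0 h than of all clusters was under 1 FPKM in both lines at 24 h. Of the 195 cluster sums higher in LmHC, 47 (24.1%) were under 1 FPKM in both 24 h libraries, and of the 301 higher in LmLC 44 (14.6%) were, against 447 of all 14193 (3.15%). Among contigs the shares were 25.2% of those higher in LmHC, 18.3% of those higher in LmLC and 9.15% of all. Cluster sums higher in LmHC had a median of 5.60 FPKM in LmHC and 1.72 FPKM in LmLC at 0 h, and of 2.68 FPKM in LmHC and 1.65 FPKM in LmLC at 24 h. Those higher in LmLC had a median of 0.86 FPKM in LmHC and 6.65 FPKM in LmLC at 0 h, and of 0.84 FPKM in LmHC and 3.92 FPKM in LmLC at 24 h.

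Contigs listed at 0 in 1 of the lines and at 2 FPKM or more in the other at 0 h were mostly present in LmLC. More contigs were listed at 0 in LmHC in general: of the 70886 kept, the 0 h library of LmHC had 5388 at 0 and that of LmLC 4053, and the 24 h library of LmHC had 2290 and that of LmLC 857. The counts that follow cover all 111761 contigs, with no filter on the mean. Of these, 24679 were listed at 0 in LmHC at 0 h and 22353 in LmLC. At 0 h, 120 contigs had at least 2 FPKM in LmHC and were listed at 0 in LmLC. The other way, 1206 had at least 2 FPKM in LmLC and were listed at 0 in LmHC. With a limit of 5 FPKM the numbers were 16 and 313, and with 10 FPKM they were 0 and 96. The highest such level was 9.70 FPKM in LmHC and 173.03 FPKM in LmLC. Of the 513 in clusters on the LmLC side, 383 (74.7%) belonged to clusters whose sum was less than 2-fold higher in LmLC, and 75 to clusters listed at 0 as a whole in LmHC. On the LmHC side 41 of 45 (91.1%) belonged to clusters whose sum was less than 2-fold higher in LmHC. For most clustered contigs listed at 0 in a line at 0 h, the cluster sum was thus above 0 in that library. A 0 in 1 library does not show that a line lacks a contig. Of the 1206 contigs, 985 were listed at 0 in LmHC at 24 h too, and 729 of these were above 0 in LmLC at 24 h. Of the 120, 39 were listed at 0 in LmLC at 24 h too, and 20 of these were above 0 in LmHC at 24 h. Of all 111761 contigs, 17523 were listed at 0 in LmHC and 14788 in LmLC at 24 h. How often any contig at 0 in a line at 0 h was at 0 again at 24 h was not counted. These numbers therefore do not show a lasting absence particular to LmHC.

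A larger share of the differences toward LmLC than of those toward LmHC was seen again at 24 h. The 24 h libraries share no library with the comparison at 0 h, but seedlings had by then been in cadmium. The 24 h values also entered the filter, a mean of at least 1 FPKM over the 4 libraries. A contig or cluster could thus be kept partly through the line where it was high at 24 h. How far this raised the shares that follow was not tested. Of 1761 contigs higher in LmHC at 0 h, 292 (16.6%) passed 2-fold toward LmHC at 24 h, 1222 (69.4%) had the same sign and 41 were at least 2-fold higher in LmLC. Of 3139 higher in LmLC, 1463 (46.6%) passed 2-fold toward LmLC at 24 h, 2513 (80.1%) had the same sign and 68 were at least 2-fold higher in LmHC. At 24 h, 4.46% of all contigs passed 2-fold toward LmHC and 7.13% toward LmLC. The differences of 0 h were unequal in size, with a median log2 ratio of 1.24 for contigs higher in LmHC and -1.56 for those higher in LmLC. Of the contigs higher in LmHC, 130 (7.38%) were listed at 0 in LmLC, and of those higher in LmLC, 1022 (32.6%) were listed at 0 in LmHC.

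By class, the share called again was larger with an opposite partner than where the cluster sum differed. Toward LmHC, 59 of 175 contigs with an opposite partner (33.7%) were called the same way at 24 h, against 20 of 161 (12.4%) where the cluster sum differed, 72 of 515 (14.0%) in the third class and 141 of 910 stand-alone contigs (15.5%). Toward LmLC the shares were 109 of 206 (52.9%), 158 of 356 (44.4%), 602 of 1146 (52.5%) and 594 of 1431 (41.5%). The call at 24 h was made for 3.73% of all clustered contigs toward LmHC and 6.53% toward LmLC, and for 5.58% and 8.06% of stand-alone contigs. Cluster sums higher at 0 h were called again at 24 h in 31 of 195 cases (15.9%) toward LmHC and in 132 of 301 (43.9%) toward LmLC, against 2.55% and 3.42% of all sums. These shares differ in level as well as in class, since a larger share of the contigs whose cluster sum differed was under 1 FPKM in both lines at 24 h: 32.3% toward LmHC and 21.1% toward LmLC, against 8.0% and 7.77% with an opposite partner. Whether alleles, gene copies or splice forms lie behind contigs that recur was not tested, since the table holds no sequence.

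**Figure D5:**
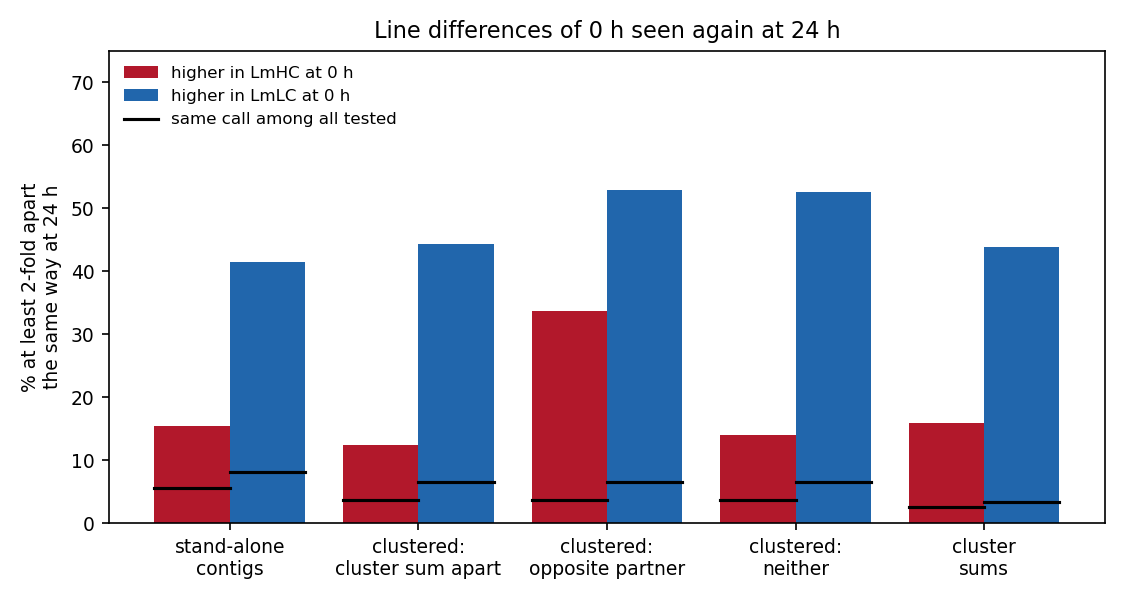
Bars give the percentage of contigs or cluster sums at least 2-fold higher in LmHC (red) or LmLC (blue) at 0 h that were at least 2-fold apart the same way at 24 h; black lines give the same call among all contigs or sums tested. Bars toward LmLC lie between 41.5% and 52.9%, and those toward LmHC between 12.4% and 33.7%.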

How the data were processed

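RNA was captured with oligo(dT) beads from total RNA, per the labels' protocols, in 4 libraries, 1 per group. The authors deposited FPKM values rounded to 2 decimals; Bowtie2 2.2.5 and RSEM 1.2.8 were used, per the submitters' processing notes. The sources used here name no assembler, contig lengths or filters. Clusters were read from contig names, and 540 clusters have gaps in their contig numbers, 747 numbers in all, so sums cover the contigs in the table. FPKM is per length, so sums over contigs of unequal length remain per-length levels. With 1 library per group no test was made, and a 2-fold rule on log2(FPKM + 1) was used. The steps were tried on simulated data with planted whole-cluster differences and swaps. These were larger than 2-fold and lay in clusters with contigs of at least 5 FPKM. The simulation thus does not show how calls near 2-fold or at low levels fare. Named are the 2 largest and 2 smallest ratios of all contigs, of contigs at 100 FPKM or more and of clusters with 2 or more expressed contigs, and the clusters with the largest and the most abundant exchange. The question, the rules and the lists were chosen with earlier results of these data known. The recurrence count at 3 FPKM, the intraclass correlation, the counts of contigs listed at 0 and those under 1 FPKM were added after seeing the data. Alternatives were pseudocounts of 0.1 and 5, other filters, scaling to equal column totals or by the median of ratios, and other limits for classes. Relative depth was read from stand-alone contigs between 0.3 and 1.2 FPKM, as the most frequent log2 ratio within 1.5 of 0. Analyses used Python 3.11.15, numpy 2.4.6 and pandas 2.3.3.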

Additional observations from a re-analysis of the deposited data

Results flagged for a closer look

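The lines differed in opposite directions at 0 h and 24 h in 109 of 70886 contigs (0.154%), each at least 2-fold apart at both times: 41 were higher in LmHC at 0 h and in LmLC at 24 h, and 68 the other way around. What set them apart is that the single pair of libraries at 24 h went against the pair at 0 h; no test of the difference between times was possible with 1 library per group, and it was not tested. The 41 were 2.33% of the contigs higher in LmHC at 0 h, against 7.13% of all contigs higher in LmLC at 24 h, and the 68 were 2.17% of those higher in LmLC at 0 h, against 4.46% of all contigs higher in LmHC at 24 h, so both shares lay below the background. Of the 109, 59 were in clusters and 50 stood alone, 21 had a mean of at least 5 FPKM, and 8 cluster sums showed the same pattern.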

How the results depend on the processing

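No paired analysis was possible because each group had 1 library. Of 72 alternative values, 33 stayed within 1.5 times the reported count or, for recurrence, within its 95% binomial interval. That interval treats contigs as independent, which they are not, so it serves as a yardstick and not as a test. The alternatives for the FPKM difference that cancelled are counted among the other 39, although no limit was applied to them. For these 39, no cause was tested except what a setting does by construction. The balance toward LmLC held under each pseudocount, filter and scaling tried: LmLC had 64.1% of contigs apart as reported, 54.8% at pseudocount 0.1, 80.6% at pseudocount 5 and 68.9% under median-of-ratios scaling. The balance did not hold at each level. At 20 to 100 FPKM, 24 stand-alone contigs were apart toward LmHC and 21 toward LmLC, against 44 and 63 clustered contigs. At 100 FPKM or more, 5 contigs were apart toward LmHC and 2 toward LmLC. Pseudocount 0.1 put 5958 contigs and 561 cluster sums apart toward LmHC, and 7230 contigs and 613 sums toward LmLC, with 1232 contigs whose cluster sum differed, 1672 with an opposite partner and 3873 with neither. Pseudocount 5 put 178 contigs and 24 sums apart toward LmHC, and 739 contigs and 116 sums toward LmLC, with 130, 59 and 368 contigs in these classes. Keeping means of 5 FPKM or more left 381 contigs and 69 sums toward LmHC, and 663 contigs and 112 sums toward LmLC, with 135, 73 and 500 contigs in the classes. Contigs with opposite partners outnumbered those whose cluster sum differed at pseudocount 0.1, and also (659 against 517) when an offset of at least 50% by the rest of the cluster took the place of an opposite contig. With 1.5-fold as the limit for a difference of the cluster sum, 851 contigs fell in that class. A distance of 0.2 gave 485 clusters apart in composition alone and 30 in both; a distance of 0.5 gave 10 and 3, beside 92 apart in level alone, so there the order of composition and level turned. Sums of 20 FPKM or more left 23 clusters apart in composition alone, 21 in level alone and 3 in both. Recurrence at 24 h was 26.7% for LmHC and 44.7% for LmLC at pseudocount 0.1, and 25.2% for LmHC and 52.9% for LmLC at means of 5 FPKM or more; for LmHC it was 23.3% under median-of-ratios scaling. At 3 FPKM in a 24 h library, chosen after seeing the data, it was 31.3% for LmHC and 65.6% for LmLC, but a contig can pass this limit through the line where it is high at 24 h, so these values support nothing. The FPKM difference that cancelled was 30.3% under median-of-ratios scaling and 24.0% at means of 5 FPKM or more. No fragment counts were given, so counting intervals are lacking, and calls under 5 FPKM are the least certain.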
